A study of Mus musculus with 12 samples.

Results

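CEP genes encode numbered centrosomal proteins, and the set described here holds every gene whose symbol is Cep followed only by digits in the deposited expression table. The rule found 32 genes among 29549, of which 31 passed the low-count filter and were tested among 18183 genes. Cep126 did not pass. Fopnl and Fgfr1op, named Cep20 and Cep43 in newer annotations, stand in the table under their older symbols and were not matched, and Cep57l1, Cep85l and Cep170b are described separately as paralogues. RNA was sequenced from cells that the labels call B16F10, a mouse melanoma line, in 12 libraries, 3 in each of 4 groups. Control cells carried a non-targeting guide and sgRnf19a cells a guide against Rnf19a, an E3 ubiquitin ligase gene. Each was left untreated (control, sgRnf19a) or kept for 24 h under a treatment named IR (control_IR, sgRnf19a_IR), which the labels do not spell out and for which they give no dose. The labels do not say whether the sgRnf19a cells are 1 clone or a pool, or name separate cultures for the libraries of a group. The p-values therefore cover only the spread among libraries, which may be technical.

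The centrosome is built around a pair of centrioles, barrels of microtubules that duplicate once per cell cycle under the kinase Plk4. The older centriole carries distal appendages, which dock it to the cell membrane as the base of a primary cilium, and subdistal appendages, which anchor microtubules. CEP proteins include the platform that recruits Plk4, the factors that lengthen and cap the new centriole, the appendages, the linker that holds the centrioles together, and the satellites that surround them. Many are long coiled-coil scaffolds.

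The libraries differed with treatment in more than gene expression. Untreated libraries held 62.7 to 71.3 M counts and IR-treated libraries 34.3 to 45.6 M. Ribosomal RNA took 0.408 to 0.813% of counts without IR and 11.4 to 22.2% with it. Long transcripts (above 6 kb) exceeded short ones (below 1 kb) by 1.56 to 2.61 in median log2 level without IR, and by -1.03 to 0.99 with IR. Because these values move with the treatment in all libraries, their share in a fall with IR and the treatment itself cannot be told apart. IR fold changes are given as counted, and further below also corrected for the length and GC content of the transcript. In bulk RNA, fewer cells of a type and less RNA per cell cannot be told apart either. Rnf19a stood at 21.5 to 33.5 CPM (counts scaled to library size) in control and 22.6 to 27.5 CPM in sgRnf19a libraries, at 4.37 to 8.06 CPM in control_IR and 11.6 to 37.7 CPM in sgRnf19a_IR, so the transcript of the targeted gene did not differ past the threshold between untreated cells (log2 fold change -0.16, adjusted p = 0.881) and was 3.78-fold higher in the IR-treated cells labelled sgRnf19a (adjusted p = 0.00352). A guide need not lower the mRNA, and the level does not check the label. Of 8 melanocyte markers 4 (Mlana, Slc45a2, Tyr and Tyrp1) had 0 counts in every library. Of the others, Mitf averaged 11.4 CPM in control, and Dct, Pmel and Sox10 averaged 0.00401, 0.288 and 0.125 CPM. The keratin genes Krt8, Krt18 and Krt19 averaged 351, 254 and 145 CPM in control, but the epithelial markers Epcam and Cdh1 only 0.829 and 0.0605 CPM. What these levels mean for the cell line was not tested.

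CEP transcripts were long and AT-rich. Their median length, in the longest coding transcript model of mm10, was 4036.5 bases against 3149 for the 13983 protein-coding genes tested, and 24 of 32 were above the latter. Median GC content was 46.4% against 50.3%, with 23 of 32 below the latter. Length ran from 1690 bases in Cep44 to 13307 in Cep350, and GC content from 38.7% in Cep290 to 61.4% in Cep131. Composition and length did not run together in every member, as 4 genes show that the results below return to. Cep290 and Cep162 are long and AT-rich, Cep250 is as long and GC-rich, and Cep131 is of medium length and the most GC-rich. A stretch of 150 bases was taken from the longest coding exon of each, at the place where its GC content is nearest to that of the whole coding sequence (GENCODE M21, mm10). Each reads 5′ to 3′ on the gene's strand, with G and C in capitals. The Cep290 stretch is chr10:100537665-100537814 in exon 31 of 54, on the + strand, at 38.7% GC. The Cep162 stretch is chr9:87204069-87204218 in exon 23 of 27, on the - strand, at 44.7%. The Cep250 stretch is chr2:155990369-155990518 in exon 28 of 33, on the + strand, at 57.3%. The Cep131 stretch is chr11:120067997-120068146 in exon 18 of 26, on the - strand, at 62.7%.
Cep290: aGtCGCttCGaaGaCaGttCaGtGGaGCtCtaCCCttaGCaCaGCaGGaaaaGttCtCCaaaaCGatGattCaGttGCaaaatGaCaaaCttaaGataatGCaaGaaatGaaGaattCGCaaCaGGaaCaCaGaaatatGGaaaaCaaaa
Cep162: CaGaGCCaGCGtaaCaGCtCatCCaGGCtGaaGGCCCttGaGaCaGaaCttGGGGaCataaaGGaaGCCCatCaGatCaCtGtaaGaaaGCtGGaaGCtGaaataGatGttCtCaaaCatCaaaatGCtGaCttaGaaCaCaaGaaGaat
Cep250: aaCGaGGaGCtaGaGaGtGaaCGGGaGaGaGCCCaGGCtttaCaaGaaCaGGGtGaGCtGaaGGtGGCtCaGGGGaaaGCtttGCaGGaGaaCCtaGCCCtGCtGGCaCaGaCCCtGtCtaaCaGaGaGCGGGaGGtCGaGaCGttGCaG
Cep131: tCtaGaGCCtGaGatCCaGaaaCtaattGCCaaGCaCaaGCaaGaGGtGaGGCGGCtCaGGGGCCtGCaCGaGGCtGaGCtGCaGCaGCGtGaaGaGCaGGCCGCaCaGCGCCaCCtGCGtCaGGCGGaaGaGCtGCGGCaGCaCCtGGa

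In untreated control cells the 32 genes spanned a wide range of level per length. Cep55, which brings the membrane-cutting ESCRT machinery to the midbody at the end of cell division, was the highest at 36.7 ± 6.16 FPKM (fragments scaled to transcript length and library size, mean ± SD, n = 3; 29.5 to 40.5). Cep250, the anchor of the linker between centrioles, followed at 14.8 ± 1.48 FPKM, and Cep192, a scaffold that recruits Plk4 and pericentriolar material, at 12.9 ± 4.46 FPKM. The libraries of Cep192 (7.84 to 16.3 FPKM) overlapped those of Cep250 (13.7 to 16.5 FPKM), so that order does not exceed their spread. The lowest 3 were the satellite gene Cep72 at 1.58 ± 0.051 FPKM, the subdistal appendage gene Cep128 at 0.951 ± 0.262 FPKM and Cep126 at 0.0164 FPKM. Cep126 had 8, 5 and 8 counts in the control libraries, 4, 4 and 0 in sgRnf19a, 0 in each control_IR library, and 4, 0 and 8 in sgRnf19a_IR. Low values pile up at 4 in the count table, where 4 occurs 12162 times, 3 occurs 4921 times and 5 occurs 3525 times, so 1 read pair may be worth about 4 counts. Cep126 would then rest on a few pairs, and no fold change is given for it.

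IR in control cells was accompanied by lower levels of most CEP genes. Of 31 tested, 22 fell and 1, Cep89, rose (edgeR quasi-likelihood test, Benjamini-Hochberg adjusted p under 0.05), while 25.7% of all genes tested fell and 22.2% rose. The members' median log2 fold change was -2.12, against -0.02 over all genes. In 22 members every control_IR library lay below every control library, which held for 32.1% of all genes. The falls reached 18.8-fold in Cep290, 17.4-fold in Cep295, 14.7-fold in Cep162, 14.3-fold in Cep192, 10.7-fold in Cep350 and 10.3-fold in Cep112. Control replicate 3 was the lowest of the control libraries in 22 of the 31 members, and without it 21 fell, with a median of -2.25.

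**Figure D1:**
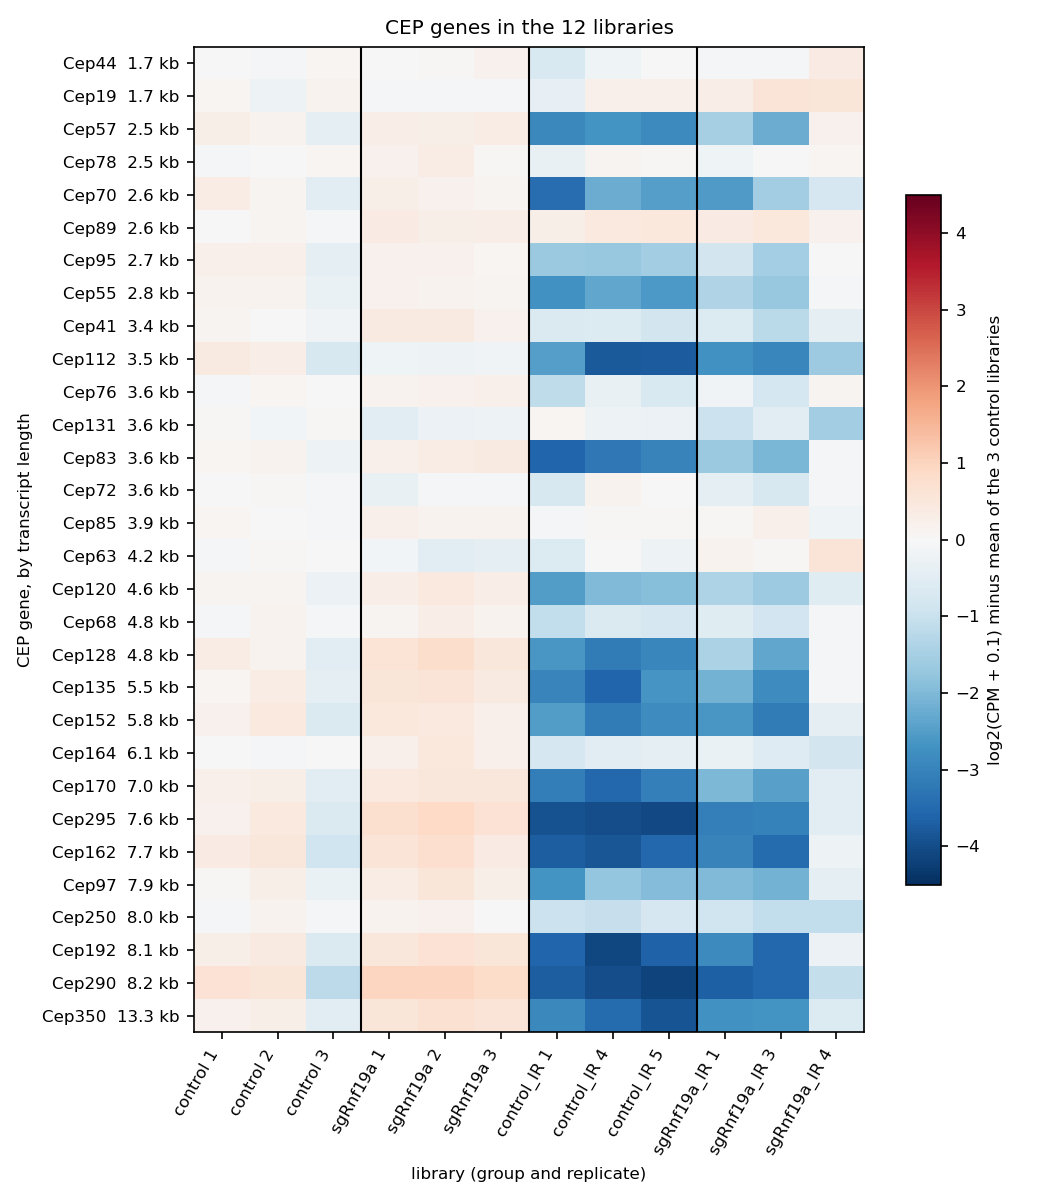
Level of the CEP genes in the 12 libraries, as log2(CPM + 0.1) minus the mean of the 3 control libraries (colour), with genes ordered by transcript length (vertical axis, length in kb) and libraries by group (horizontal axis). Most of the long genes at the foot lie far below control in the 3 control_IR libraries, with Cep250 and Cep164 as exceptions, the shorter Cep112 and Cep83 lie far below as well, and sgRnf19a_IR replicate 4 stands apart from the other 2 libraries of its group.

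Among the 11 genes of centriole duplication and elongation, 7 fell and 4 did not pass the test. Cep192 stood at 163.8, 179.5 and 86.8 CPM in control and at 11.3, 7.97 and 10.8 CPM in control_IR (log2 fold change -3.84, SE 0.71, adjusted p = 0.000836). The lowest untreated library was still several times the highest treated one. Cep295, required for a new centriole to elongate and become a centrosome, stood at 53.5, 63.3 and 29.6 CPM in control and at 2.95, 2.81 and 2.68 CPM in control_IR (-4.12, SE 0.65, adjusted p = 0.000311). The 3 treated libraries lay close together and the spread was all among the untreated ones. Cep152, which with Cep192 recruits Plk4, went from 34.6, 40.6 and 19.4 CPM to 5.18, 3.30 and 4.11 CPM (-2.91, adjusted p = 0.00182). Its partner Cep63 did not follow, with 14.03, 15.3 and 14.9 CPM in control and 9.62, 14.7 and 12.6 CPM in control_IR (-0.26, adjusted p = 0.31), and these groups overlap. Cep63 shares 239 bases with Anapc13 on the opposite strand, and whether counting used strand is not given in the sources used here. Cep135, which joins the cartwheel at the core of the new centriole to its wall, fell from 18.6 ± 4.69 to 2.17 ± 0.707 CPM (-3.10, adjusted p = 0.00107). Cep57, another ring protein around the parent centriole, fell 7.25-fold with a transcript of only 2523 bases (42.4% GC), and Cep120, an elongation factor, fell 4.39-fold. Cep76, a brake on repeated duplication, fell 1.62-fold (-0.70, adjusted p = 0.0266). Cep44, Cep78 and Cep85 did not pass, with log2 fold changes of -0.26, -0.05 and 0.01.

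Among 7 genes of the distal end, cap and tip, 5 fell. Cep290 (chr10:100487558-100574840), a scaffold of the transition zone at the cilium base and a well-known ciliopathy gene, stood at 45.7, 41.8 and 12.7 CPM in control and at 2.09, 1.72 and 1.53 CPM in control_IR (-4.23, SE 0.71, adjusted p = 0.000468). The treated values rest on 59, 60 and 57 counts, and the gene overlaps 4930430F08Rik by 2576 bases on the opposite strand. Cep162 (chr9:87189577-87255536), which sits at the distal end of the centriole and helps to assemble the transition zone, stood at 40.8, 44.4 and 16.8 CPM without and 2.27, 2.07 and 2.58 CPM with IR (-3.88, SE 0.76, adjusted p = 0.00121). In both genes control replicate 3 was low within its group and yet above all treated libraries. Cep350, a microtubule-binding protein that brings Cep19 to the centriole, stood at 58.2, 61.9 and 37.3 CPM in control and at 6.78, 4.59 and 3.38 CPM in control_IR (-3.42, adjusted p = 0.000316). Cep97, a partner of Ccp110 in the cap of the centriole, fell 4.35-fold and Cep41, needed for glutamylation of ciliary tubulin, 1.63-fold. Cep19 had a log2 fold change of 0.05 and its groups overlapped.

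Among 6 genes of the distal and subdistal appendages, 5 fell and 1 rose. Cep83, the innermost distal appendage protein, stood at 43.8, 46.3 and 35.5 CPM in control and at 3.37, 4.36 and 5.04 CPM in control_IR (-3.29, SE 0.44, adjusted p = 0.000139). Cep164 (chr9:45766946-45828691), which works outward of Cep83 and recruits the kinase Ttbk2, changed far less, from 34.2, 32.6 and 33.7 CPM to 19.8, 23.5 and 24.6 CPM (-0.57, SE 0.15, adjusted p = 0.00877). Cep89, another protein of the same appendage, rose from 20.4, 22.6 and 19.4 CPM to 25.03, 28.2 and 28.9 CPM (0.39, SE 0.13, adjusted p = 0.0226). In a fit of log2(FPKM + 1) with limma its sign turned (-0.08). Of the subdistal genes, Cep170 stood at 131, 134 and 76.8 CPM without and 12.6, 9.41 and 12.9 CPM with IR (-3.29, adjusted p = 0.000154), and Cep128 at 14.6, 13.1 and 8.16 CPM against 1.81, 1.23 and 1.45 CPM (8.02-fold, adjusted p = 0.000395). Cep112, listed with them, fell from 15.8 ± 5.85 to 1.55 ± 0.933 CPM (-3.36, adjusted p = 0.000181).

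The linker genes fell little. Cep250 (chr2:155956458-155998900) stood at 129, 151 and 132 CPM in control and at 70.3, 67.2 and 80.5 CPM in control_IR, a 1.89-fold fall (-0.92, SE 0.13, adjusted p = 0.00017), and Cep68 fell 1.79-fold (-0.84, adjusted p = 0.00308). The groups did not overlap in either gene. Of the satellite and matrix genes, Cep131 (chr11:120064430-120086827) stood at 26.3, 23.2 and 26.6 CPM without and 26.7, 21.5 and 20.9 CPM with IR (-0.14, adjusted p = 0.651), and Cep72 had a log2 fold change of -0.13. Cep70, a binder of gamma-tubulin, fell 6.59-fold. Cep55 stood at 105, 104 and 76.1 CPM in control and at 14.2, 18.5 and 15.8 CPM in control_IR (-2.55, SE 0.36, adjusted p = 0.000177). Cep95, for which no role is given here, fell 3.23-fold.

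**Figure D2:**
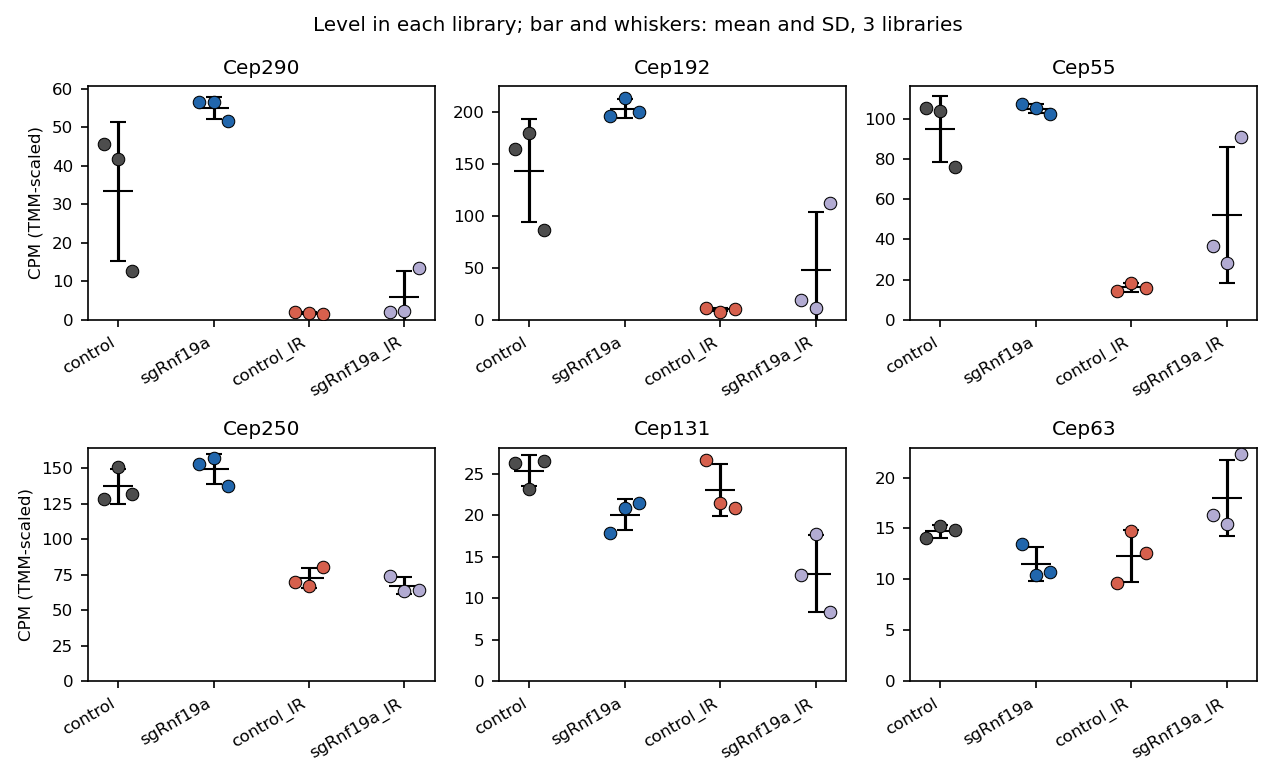
Level of 6 CEP genes in each library (vertical axis, CPM from 0; horizontal axis, the 4 groups; points, libraries; bar and whiskers, mean and SD over 3 libraries). Cep290 and Cep192 drop to 1.78 and 10.03 CPM on average in control_IR, and sgRnf19a_IR replicate 4 lies at 13.6 CPM for Cep290, near the lowest control library, and at 112.4 CPM for Cep192, within the control range, while Cep250 falls to 72.7 CPM and Cep131 and Cep63 overlap between control and control_IR.

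Falls were deepest among long and AT-rich members. Across the 31 genes, Spearman's rho of the log2 fold change in control cells was -0.55 with transcript length and 0.64 with transcript GC content, and 0.70 with coding GC content. These genes share the same libraries, and the coefficients only describe them. Over the 13983 protein-coding genes tested the first 2 were -0.46 and 0.44. Some members give a contrast at like length, and others depart from it. Cep162 (7685 bases, 45.6% GC) fell 14.7-fold, whereas Cep250 (7979 bases, 57.4% GC) fell 1.89-fold and Cep164 (6105 bases, 57.7% GC) 1.48-fold. The AT-rich Cep97 (7911 bases, 42.6% GC) fell only 4.35-fold, however, and Cep152 (5768 bases, 50.6% GC) fell 7.53-fold. Splitting at 4 kb and 50% GC, all 11 long AT-rich members fell, with a median of -3.29, against 68.0% of such protein-coding genes and a median of -1.40. Of 5 long GC-rich members, 3 fell, against 25.9% of such genes. Of 11 short AT-rich members, 8 fell, with a median of -1.69, against 33.9% and a median of -0.26. None of the 4 short GC-rich members fell (Cep131, Cep78, Cep85 and Cep89), against 5.04%.

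**Figure D3:**
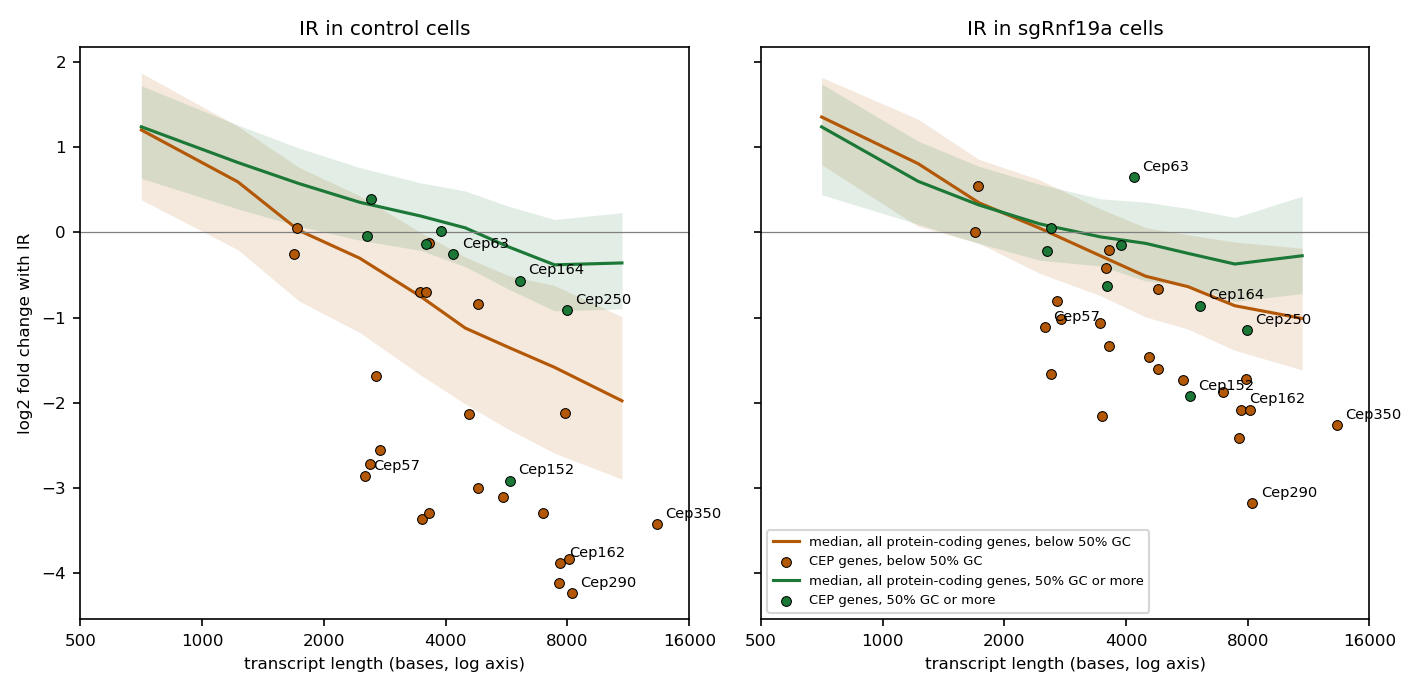
Log2 fold change with IR (vertical axis) against transcript length in bases (horizontal, log axis) in control cells (left) and sgRnf19a cells (right), with CEP genes as points and the median and middle 50% of all protein-coding genes as lines and bands, split at 50% GC. Cep290, Cep162 and Cep152 lie below the bands in control cells, while Cep250 and Cep164 lie within or at the edge of the GC-rich band.

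The correction for length and GC content takes each library's average trend with both, fitted over protein-coding genes, out of all genes. After it, 17 of the 22 falls in control cells remained, against 19.6% of all genes called lower. The median was -1.20, against -0.01 for all genes. All 17 had smaller folds than as counted. Cep295 was 5.86-fold lower after correction, Cep162 5.65-fold, Cep112 5.46-fold, Cep152 4.95-fold, Cep128 4.92-fold, Cep83 4.90-fold and Cep192 4.83-fold. Cep290, the deepest as counted, was 3.99-fold lower. Cep57 was 3.89-fold lower, Cep350 3.80-fold, Cep55 and Cep135 each 3.56-fold, Cep170 3.15-fold, Cep70 2.97-fold, Cep120 2.62-fold and Cep95 2.30-fold, and Cep250 was at the low end with 1.30-fold. The calls of Cep97 (-0.39), Cep164 (-0.22), Cep68 (-0.15) and Cep41 (-0.13) were lost, and Cep76 turned sign at 0.33. With length alone corrected, Cep164 and Cep250 turned sign, at 0.42 and 0.31. Cep89 was no longer called (0.19), and Cep72 was called higher (0.48, adjusted p = 0.0428). The correction acts on the average length and composition trends whatever their source, and does not remove all dependence among the members. After it, rho in control cells was -0.40 with transcript length, 0.45 with transcript GC content and 0.62 with coding GC content. In sgRnf19a cells these were -0.51, 0.53 and 0.60.

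**Figure D4:**
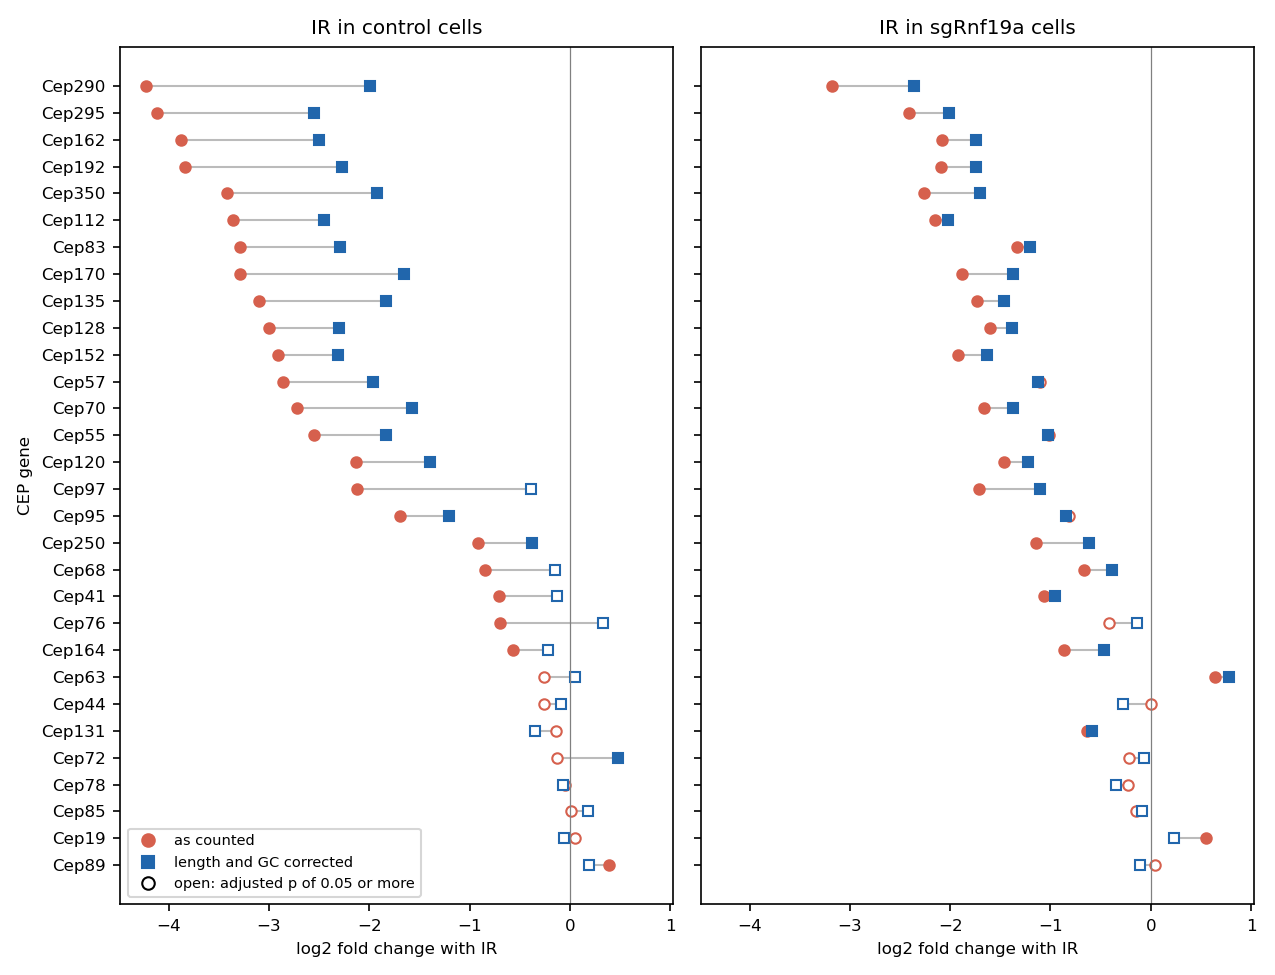
Log2 fold change with IR (horizontal axis) of each CEP gene (vertical axis) in control cells (left) and sgRnf19a cells (right), as counted (circles) and after the length and GC correction (squares), filled where the adjusted p is under 0.05. In control cells the correction moves Cep295 from -4.12 to -2.55 and Cep76 from -0.70 to 0.33, and in sgRnf19a cells it moves Cep290 from -3.17 to -2.36.

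IR in sgRnf19a cells gave 20 falls and 2 rises among the 31 genes, against 17.6% of all genes lower and 18.0% higher. The median was -1.11, and 23 members had every treated library below every untreated one, which held for 26.6% of all genes. The largest falls were Cep290 at 9.03-fold, Cep295 at 5.30-fold, Cep350 at 4.80-fold, Cep112 at 4.45-fold, Cep192 at 4.26-fold and Cep162 at 4.23-fold. The treated group was spread wide. Cep192 stood at 196.2, 213.7 and 199.4 CPM in sgRnf19a and at 18.8, 11.8 and 112.4 CPM in sgRnf19a_IR (-2.09, SE 0.65, adjusted p = 0.0268). Cep290 stood at 56.5, 56.7 and 51.6 CPM against 2.18, 2.42 and 13.6 CPM (-3.17, SE 0.66, adjusted p = 0.00325). In both the high treated library was sgRnf19a_IR replicate 4, which was the highest of its group in 24 of 31 members and had the highest long-minus-short difference of any IR-treated library (0.99). Without it the median was -1.69, with 22 falls and 1 rise, and Cep290, Cep295, Cep162 and Cep192 stood at -4.59, -3.84, -3.83 and -3.73.

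Called lower in both kinds of cell were 19 genes. Cep57, Cep76 and Cep95 were called in control but not in sgRnf19a cells, and Cep131 the other way round, and in none of these 4 was the difference between the responses called. Cep131 went from 17.9, 20.9 and 21.4 CPM to 12.8, 17.7 and 8.39 CPM, narrowly without overlap (-0.63, SE 0.23, adjusted p = 0.0469), and its adjusted p was 0.0664 without sgRnf19a_IR replicate 4. Its call was lost in 16 of 26 alternatives in all. Cep63 rose from 13.5, 10.4 and 10.7 CPM to 16.3, 15.4 and 22.3 CPM (0.64, SE 0.20, adjusted p = 0.0234) and Cep19 from 12.0, 11.5 and 11.8 CPM to 15.1, 18.7 and 18.0 CPM (0.55, SE 0.18, adjusted p = 0.0348). The call of Cep19 was lost after the length and GC correction (0.23, adjusted p = 0.283) and in 12 of 26 alternatives in all. That of Cep63 was kept after the correction (0.78, adjusted p = 0.00312), and was lost without replicate 4 (adjusted p = 0.0611) and in 10 of 26 alternatives in all. The linker gene Cep250 fell 2.22-fold and the appendage gene Cep164 1.82-fold, while Cep55 fell 2.02-fold. After the length and GC correction 22 genes were called lower, against 20.9% of all genes, with a median of -1.02. They held all 20 of the uncorrected falls and added Cep57 (-1.13) and Cep95 (-0.85), and Cep290 was at -2.36. The number of calls fell to 12 without sgRnf19a replicate 2, to 14 without sgRnf19a replicate 3 and to 12 without sgRnf19a_IR replicate 1.

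In untreated cells the guide moved no CEP gene past the threshold, against 6.22% of all genes. At an unadjusted p under 0.05 there was 1 of 31 (16.9% of all genes), the smallest adjusted p was 0.213, for Cep89, and DESeq2 called 0. The log2 fold change was above 0 in 25 of 31 genes, with a median of 0.27, ranging from -0.35 in Cep63 to 0.72 in Cep290. Cep290 stood at 33.4 ± 18.0 CPM in control and 54.9 ± 2.88 CPM in sgRnf19a (adjusted p = 0.631), Cep295 at 48.8 ± 17.3 and 78.2 ± 6.81 CPM (adjusted p = 0.62). The large SD in control came from its replicate 3, and without that library the median was 0.14.

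In IR-treated cells 14 CEP genes were higher with the guide than without it and 1 was lower, against 21.0% and 12.8% of all genes. The median was 0.94, against 0.07 for all genes, and in 14 members every sgRnf19a_IR library lay above every control_IR library, which held for 23.0% of all genes. The largest differences were 5.24-fold in Cep295, 4.85-fold in Cep83, 4.77-fold in Cep162, 4.76-fold in Cep192, 4.05-fold in Cep57 and 3.99-fold in Cep128. Cep83 stood at 3.37, 4.36 and 5.04 CPM in control_IR and at 13.1, 9.87 and 39.2 CPM in sgRnf19a_IR (2.28, SE 0.42, adjusted p = 0.00251). Cep295 stood at 2.95, 2.81 and 2.68 CPM against 5.43, 5.59 and 33.2 CPM (2.39, SE 0.61, adjusted p = 0.0116). Cep55 stood at 14.2, 18.5 and 15.8 CPM against 36.6, 28.5 and 90.8 CPM (1.69, SE 0.35, adjusted p = 0.00434). All 3 sgRnf19a_IR libraries were above control_IR in these genes, and replicate 4 was the highest of them. Cep131 was the lower gene, at 26.7, 21.5 and 20.9 CPM against 12.8, 17.7 and 8.39 CPM (-0.83, SE 0.23, adjusted p = 0.0158). Cep290 was 3.42-fold higher but not called (adjusted p = 0.0603), and Cep152 had a log2 fold change of 1.30 (adjusted p = 0.107). The GC-rich Cep250 and Cep164 were at -0.11 and 0.02. The control_IR libraries enter both this comparison and that of IR in control cells, so the 2 sets of values are not independent.

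**Figure D5:**
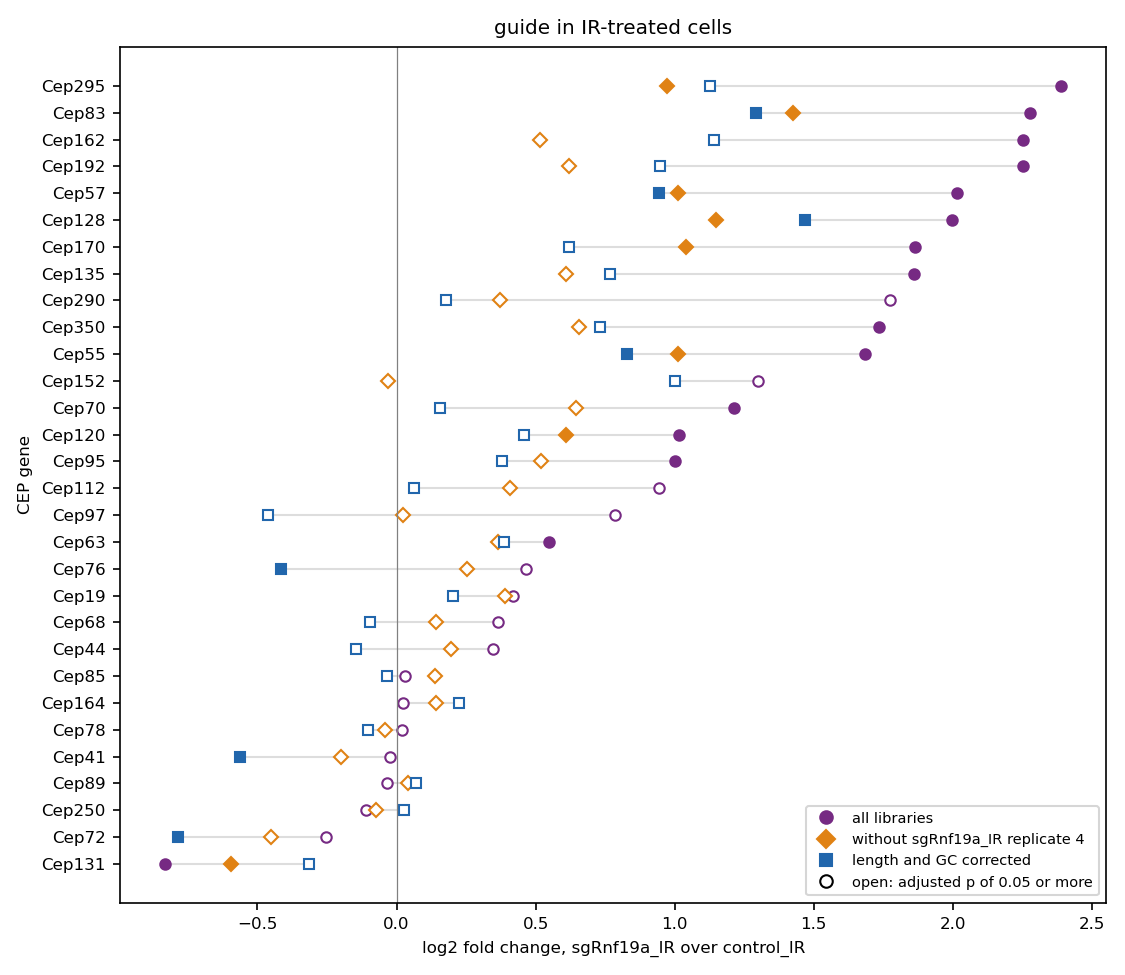
Log2 fold change between sgRnf19a_IR and control_IR (horizontal axis) for each CEP gene (vertical axis) with all libraries (circles), without sgRnf19a_IR replicate 4 (diamonds) and after the length and GC correction (squares), filled where the adjusted p is under 0.05. Cep295 moves from 2.39 to 0.97 without that library, while Cep83 and Cep55 keep their calls under each.

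Without sgRnf19a_IR replicate 4, 7 of the 14 remained called higher (Cep120, Cep128, Cep170, Cep295, Cep55, Cep57 and Cep83), Cep131 remained lower and the median was 0.37. Leaving out control_IR replicate 1, 4 or 5 left 8, 9 and 9 calls. After the length and GC correction the median was 0.20. Then 4 genes were higher, against 11.9% of all genes, all of them among the 14: Cep128 (1.47), Cep83 (1.29), Cep57 (0.94) and Cep55 (0.83). Cep295 (1.13, adjusted p = 0.0559), Cep162 (1.14, adjusted p = 0.152) and Cep192 (0.95, adjusted p = 0.16) were not called. Cep41, Cep72 and Cep76 were lower, against 16.7%, and Cep131 was not called (-0.32, adjusted p = 0.14). Across the 31 genes rho with transcript GC content was -0.67 as counted and -0.22 after correction. With coding GC content it was -0.80 as counted and still -0.52 after correction. Ribosomal RNA took 15.1 to 20.4% of control_IR and 11.4 to 22.2% of sgRnf19a_IR libraries, and the long-minus-short difference was -1.03 to -0.83 against -0.63 to 0.99. Transcripts below 42% GC exceeded those above 55% GC in median log2 level by -1.76 to -1.21 in control_IR. In sgRnf19a_IR that difference was -0.60 to 1.69. The value of 1.69, in sgRnf19a_IR replicate 4, lay above those of all untreated libraries (0.79 to 1.39). The 5 fibroblast markers (Col1a1, Col1a2, Col3a1, Dcn and Pdgfra, none at 0) summed to 395.8 to 426 CPM in control_IR and 99.9 to 202 CPM in sgRnf19a_IR, and to 470 to 503 CPM and 57.2 to 144 CPM in control and sgRnf19a. That difference was in Col3a1, at 347 CPM on average in control_IR and 52.1 CPM in sgRnf19a_IR, while the other 4 averaged higher in sgRnf19a_IR. The 5 epithelial markers (Krt8, Krt18, Krt19, Epcam and Cdh1, each with counts in some library) summed to 1043 to 1216 CPM in control_IR and 394 to 684 CPM in sgRnf19a_IR, and to 658 to 830.4 CPM and 559 to 572 CPM in control and sgRnf19a. With IR that difference was in Krt8 (636 and 248 CPM on average), Krt18 (284 and 167 CPM) and Krt19 (188 and 151 CPM). Epcam (1.34 and 1.52 CPM) and Cdh1 (0.0382 and 0.0464 CPM) were low and averaged higher in sgRnf19a_IR. Between untreated groups Krt8, Krt18 and Cdh1 averaged lower with the guide, and Krt19 and Epcam higher. Of 4 genes of cell division, Top2a was 5.16-fold higher in sgRnf19a_IR (adjusted p = 0.00623), Mki67 3.24-fold higher (adjusted p = 0.0324) and Ccnb1 1.41-fold higher (adjusted p = 0.015), and Cdk1 was 1.61-fold lower (adjusted p = 0.0422). In sgRnf19a_IR replicates 1, 3 and 4 Top2a stood at 221, 137 and 830 CPM, and Mki67 at 30.7, 39.5 and 145 CPM. After the length and GC correction Top2a (1.17, adjusted p = 0.0222) and Cdk1 (-1.08, adjusted p = 0.0129) stayed called. Mki67 (0.75, adjusted p = 0.176) and Ccnb1 (-0.25, adjusted p = 0.108) did not. The part of these differences in the guide comparisons was not tested.

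The log2 change with IR was higher (less negative or more positive) in sgRnf19a than in control cells for 22 of 31 genes, and for 18 without sgRnf19a_IR replicate 4. Tested as an interaction, however, the difference between the IR responses reached the threshold in 0 CEP genes, against 0.682% of all genes. At an unadjusted p under 0.05 there were 5 of 31 (21.2% of all genes), all positive, and DESeq2 called 3. The smallest adjusted p was 0.107, for Cep83 (1.96, SE 0.57), followed by Cep63 (0.90, adjusted p = 0.116) and Cep55 (1.54, adjusted p = 0.119). Without sgRnf19a_IR replicate 4, Cep83 passed (1.11, adjusted p = 0.0375). Without sgRnf19a_IR replicate 3, 7 genes did. The share of all genes called is not given for DESeq2 or for the fits without a library. The median difference was 0.88 as counted, 0.20 after the correction and 0.08 without replicate 4.

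Cell division genes moved unequally in the same libraries. In control cells with IR, Mki67 had a log2 fold change of -4.56 (adjusted p = 0.000148) and Top2a -3.89 (adjusted p = 0.00021), with transcripts of 10061 and 5221 bases, both AT-rich. Ccnb1 was at -0.38 (adjusted p = 0.036), and Cdk1 rose 2.60-fold (1.38, adjusted p = 0.000581). After the length and GC correction Mki67 was at -3.15, Top2a at -2.52 and Cdk1 at 2.02. Ccnb1 turned sign and was called higher (0.29, adjusted p = 0.0491). The 4 together summed to 1496 to 2543 CPM in control and 849 to 923 CPM in control_IR. Their part in the CEP gene falls was not tested.

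Promoters were read for 27 of the 32 genes from RefSeq (GRCm38.p6, 250 bases before to 50 after the start, 33 promoters) and searched on both strands. The X-box, bound by the RFX factors of ciliary genes, was searched as the half-sites GTNNCC and GGNNAC, 2 bases apart. It was found in 4 promoters, which is 12.1% of the 33 against 1.88% of all 32851 promoters. The matched sites, with the motif in capitals, are printed because these 4 genes did not respond alike. They lie at chr11:108425172-108425205 (+ strand, Cep112), chr16:32099801-32099834 (+ strand, Cep19), chr8:56550659-56550692 (- strand, Cep44) and chr10:94688766-94688799 (+ strand, Cep83).
Cep112: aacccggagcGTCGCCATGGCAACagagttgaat
Cep19: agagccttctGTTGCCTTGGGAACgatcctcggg
Cep44: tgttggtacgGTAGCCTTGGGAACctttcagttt
Cep83: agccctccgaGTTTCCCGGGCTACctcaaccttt
With IR in control cells Cep112 and Cep83 fell 10.3-fold and 9.80-fold, whereas Cep19 and Cep44 had log2 fold changes of 0.05 and -0.26. The CHR element of genes of late cell cycle, searched as TTTGAA or TTCGAA, was found in 10 of the 33 promoters (30.3% against 19.2%), among them those of Cep55, Cep162, Cep170, Cep295 and also Cep89, which rose. CCAAT was found in 15 (45.5% against 37.4%), and E2F sites, TTTCCCGC or TTTGGCGC, in that of Cep128 only (3.03% against 1.56%). A match is a run of letters, and no binding was measured.

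The other genes of the centrosome and cilium base, 94 in 7 lists, also mostly fell. With IR in control cells 59 of 93 tested fell and 10 rose, with a median of -1.05, against 25.7% of all genes lower and 22.2% higher. After the length and GC correction 49 were lower, against 19.6% of all genes, and 12 higher. The folds that follow are as counted unless named as corrected. Of the 10 centriolar satellite genes 9 fell, with Pcm1, the satellite scaffold, 18.0-fold lower, from 97.5 ± 35.6 to 5.42 ± 0.446 CPM (-4.17, adjusted p = 0.000153; 5.18-fold corrected). Of 12 appendage and linker genes 9 fell, among them the subdistal appendage gene Nin (9.29-fold, 3.77-fold corrected) and the kinase gene Ttbk2 (11.9-fold, 3.13-fold corrected). Of 17 centriole assembly genes 11 fell and 0 rose, with the duplication kinase Plk4 at 4.06-fold lower (1.85-fold corrected). Of 21 matrix genes 12 fell and 4 rose, with the scaffold Pcnt 3.11-fold lower (1.95-fold corrected). Transition zone genes gave 9 falls and 3 rises in 16, with the short B9d1 2.90-fold and B9d2 2.51-fold higher, of which B9d1 was 1.32-fold higher after correction (adjusted p = 0.0387) and B9d2 lost its call (0.31, adjusted p = 0.14). Intraflagellar transport genes gave 8 falls and 3 rises in 14, with Ift80 6.88-fold lower (2.92-fold corrected) and Ift20 2.51-fold higher (1.73-fold corrected). Of the paralogues, Cep85l fell 10.3-fold (2.75-fold corrected) while Cep57l1 and Cep170b had log2 fold changes of -0.22 and 0.21 and were called higher after correction, at 0.46 and 0.54. Fgfr1op fell 2.78-fold (1.47-fold corrected) and Fopnl rose 1.69-fold (2.02-fold corrected).

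In sgRnf19a cells IR gave 49 falls and 11 rises in the 93, including 12 of the 12 appendage and linker genes, against 17.6% of all genes lower and 18.0% higher. In untreated cells the guide gave 3 higher and 1 lower, against 6.22% of all genes in either direction. Cntln, of the appendage and linker list, stood at 0.638 ± 0.0687 CPM in control and 31.5 ± 0.787 CPM in sgRnf19a (49.2-fold, adjusted p = 4.62e-05). The transition zone genes Tctn2 and Tctn3 were 3.66-fold and 1.74-fold higher, and Ift27 was 1.54-fold lower. Among IR-treated cells 43 were higher with the guide and 11 lower, against 21.0% and 12.8% of all genes. After the correction 11 were higher and 11 lower, against 11.9% and 16.7%. Cenpj, the centriole elongation factor, stood at 1.71 ± 0.203 CPM in control_IR and 17.2 ± 16.7 CPM in sgRnf19a_IR (10.1-fold, adjusted p = 0.00225), which was 4.47-fold without sgRnf19a_IR replicate 4 and 5.21-fold after correction. Fbf1, a distal appendage gene, was 1.64-fold lower (adjusted p = 0.00403). The difference between the IR responses passed in 0 of the 93 with edgeR, with 30 at an unadjusted p under 0.05. DESeq2 called 15, and its share of all genes is not given. After the length and GC correction edgeR called 1 higher and 2 lower, against 426 of all 18183 genes in either direction.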

How the data were processed

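The authors deposited counts for each Ensembl gene and a second table with FPKM values, each with 1 column per library per the file headers. Low deposited counts pile up at multiples of 4 and were treated as estimated counts. Per the labels' protocols, ribosomal RNA was depleted and strand-marked libraries were read as pairs of 37 bp. The submitters' processing notes list mm10 and GRCm39 as builds and Bowtie2, HTSeq and DESeq2 as tools, without a role or a version. Another 12 columns repeat the counts and were set aside. Columns of untreated libraries were assigned by name. The other 6 carry a D and were placed in the IR-treated groups, the only groups left for them, under their own numbers.

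Genes passing filterByExpr (minimum count 10, minimum total 15) were fitted in 1 model of the 4 groups and 12 libraries with edgeR 4.0.16 (TMM, glmQLFit with robust, glmQLFTest, 2-sided) in R 4.3.3. P-values were adjusted by Benjamini-Hochberg over all 18183 genes of each of 5 comparisons, and calls are adjusted p-values under 0.05. CPM are TMM-scaled, and errors are SDs over 3 libraries. The length and GC correction fitted, per library, splines (5 degrees of freedom) of transcript length and GC content (GENCODE M21) and entered them as offsets. FPKM values, which the authors made, served for levels between genes and for limma 3.58.1 on log2(FPKM + 1) and log2(FPKM + 0.1). DESeq2 1.42.0 was an alternative. The fit was tested on simulated counts. Positions are those of the expression table, and 29 of the 32 members have the same start and end in GENCODE M21.

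All CEP genes are counted, and 1 of them is not reported by name or drawn here. Named with full values were up to 6 called genes per direction and comparison, those called against the majority, the 3 highest and lowest by FPKM, and 13 fixed genes. The members and lists were chosen with earlier results of these data known.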

Additional observations from a re-analysis of the deposited data

How the results depend on the processing

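The depth behind IR-treated values limits the lowest members, such as Cep290 at 57 to 60 counts a library, and 1 read pair may be worth about 4 counts, since low values pile up at 4. Leaving out each library in turn, the number of CEP genes called with IR ran from 20 to 23 in control and from 12 to 23 in sgRnf19a cells. For the guide it was 0 to 0 without IR and 8 to 21 with IR, and for the difference between the responses 0 to 7. Fitted on only the groups compared, 11 genes were called for IR in sgRnf19a cells, and the guide gave 1 call without and 3 with IR. For the guide in IR-treated cells, limma called 6 on log2(FPKM + 1), 7 on log2(FPKM + 0.1) and 2 on log2(FPKM + 1) without a filter. The length and GC correction gave 7 there, 4 higher genes among the 15 called as counted and 3 lower genes that were not among them. That correction gave 1 for the guide in untreated cells, against 1593 of all 18183 genes. DESeq2 called 3 for the difference between the responses. Without control replicate 3 and sgRnf19a_IR replicate 4 together, which was chosen after seeing the data, the guide without IR gave 1 call and the difference 2. The cause of these shifts was not tested. For the alternatives other than the length and GC correction, the share of all genes called is not given. Their counts of CEP genes therefore cannot be set against a background.

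The replicate numbers of untreated libraries were shared between guides, but same-numbered libraries did not deviate together (r = -0.15, 0.005 and 0.038). With 3 libraries in each group, these values cannot show whether same-numbered libraries share more than a number. With a replicate block 4 CEP genes were called for the guide in untreated cells, all higher, and with the block and the length and GC correction 5. The share of all genes called under these block fits is not given, so these counts have no background beside them. IR-treated columns carry numbers other than those of the labels, so no block was fitted there.

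With IR in control cells, direction turned for Cep164 (0.42) and Cep250 (0.31) under the length correction, for Cep76 (0.33) under the length and GC correction, and for Cep89 in limma on log2(FPKM + 1) (-0.0795), log2(FPKM + 0.1) (-0.10) and log2(FPKM + 1) without a filter (-0.0795); the cause was not tested. Of the single-gene calls, 16 of 23 for IR in control cells, 8 of 22 for IR in sgRnf19a cells and 1 of 15 (Cep55) for the guide in IR-treated cells were kept in all 26 alternatives.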
